A study of Rattus norvegicus with 4 samples.

Results

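The late phase of reperfusion, days 7 and 14, was set against the early phase, days 1 and 3, in rat gracilis muscle, a strap-like adductor of the thigh, that had been through 4 h of ischemia. The 2 late and 2 early arrays are all 4 of the series. Each was a 2-colour Agilent array that read injured muscle of the male Sprague-Dawley rat (Cy5) against sham-operated gracilis of the same strain and sex (Cy3). The late group therefore held 1 array with 7 days and 1 with 14 days of blood flow after ischemia, and the early group 1 array with 1 day and 1 with 3 days. Each array carried a single injured and a single sham sample, dyes were not swapped, and unoperated muscle was not among the samples. The quantity compared was the log2 ratio of injured to sham. Of 41012 gene probes, 23649 were well above background in at least 1 channel of all 4 arrays and were tested, and they stood for 10942 genes with a current symbol.

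Ischemia followed by reperfusion kills muscle fibres and breaks down the transcripts and proteins of those that survive with damage. Neutrophils and then macrophages enter and clear the debris, satellite cells divide and fuse into new fibres, and those fibres pass through an embryonic set of contractile proteins before they take up the adult one. Connective tissue cells lay down matrix over the same period.

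The days of a phase are different time points and not repeats of 1 condition, so the spread within a phase holds the change between its days. With 2 arrays against 2, an exact two-sided permutation test of a single value cannot go below p = 0.333, and p-values here come from limma, which borrows the spread across probes. A gap rule that needs no test was used beside it: a probe is called separated when the nearest late and early arrays lay at least 2-fold apart, with no overlap. Every array sat on its own slide. The scanner ran days 1, 3 and 7 together and day 14 separately, and an effect of that second scan cannot be told apart from day 14 itself. The labels do not say whether the sham RNA was shared between arrays, nor how many animals each sample came from. The sham channel of day 7 stood apart from the others. It had 34.7% of probes well above background, against 41.1% to 47.3% on the other arrays. It was at least 2-fold lower than the sham of day 1 at 1062 probes and than that of day 3 at 736, whereas the sham channels of days 1, 3 and 14 differed at least 2-fold at 110 to 247 probes a pair. Late minus early differences are for this reason also given for the injured channel alone. Its levels come from arrays whose 2 channels were normalized together, so they are not wholly free of the sham values.

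In the late phase 406 probes were higher (1.72% of those tested) and 55 were lower (0.233%) than in the early phase by limma at an adjusted p under 0.05. These stood for 245 genes higher (2.24%) and 35 genes lower (0.32%). At an unadjusted p under 0.05 in limma, 1437 of the 10942 genes were higher and 979 lower, and 6124 had a positive difference. The phases were separated at least 2-fold upward at 801 probes (3.39%), or 477 genes (4.36%), and downward at 129 probes (0.545%), or 83 genes (0.759%). Without the 2-fold gap, the phases did not overlap upward at 7138 of the 23649 probes and downward at 5059, so non-overlap alone was common. These values over all genes or probes are to be set beside the counts given for lists below. Of the 461 called probes, 453 were also separated. The median difference was 2.26 among probes called higher and -1.54 among those called lower, and the smallest called was 1.01 in size. Higher probes made up 88.1% of the calls, and 78.0% when arrays were centred on their median in place of loess (227 higher and 64 lower).

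The limma counts fell without day 7, 14 or 1, and did not fall without day 3. Each such fit leaves 1 array in a phase, so its spread comes from the 2 days of the other phase alone. A loss of calls there does not show which arrays the calls rested on. Without day 7 or without day 14 limma called 0 probes in either direction, with 2388 and 1975 probes higher and 1412 and 913 lower at an unadjusted p under 0.05. Without day 1 it called 77 higher and 1 lower. The gap rule, applied to the arrays that remained, gave 1323 probes upward and 439 downward without day 7.

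**Figure D1:**
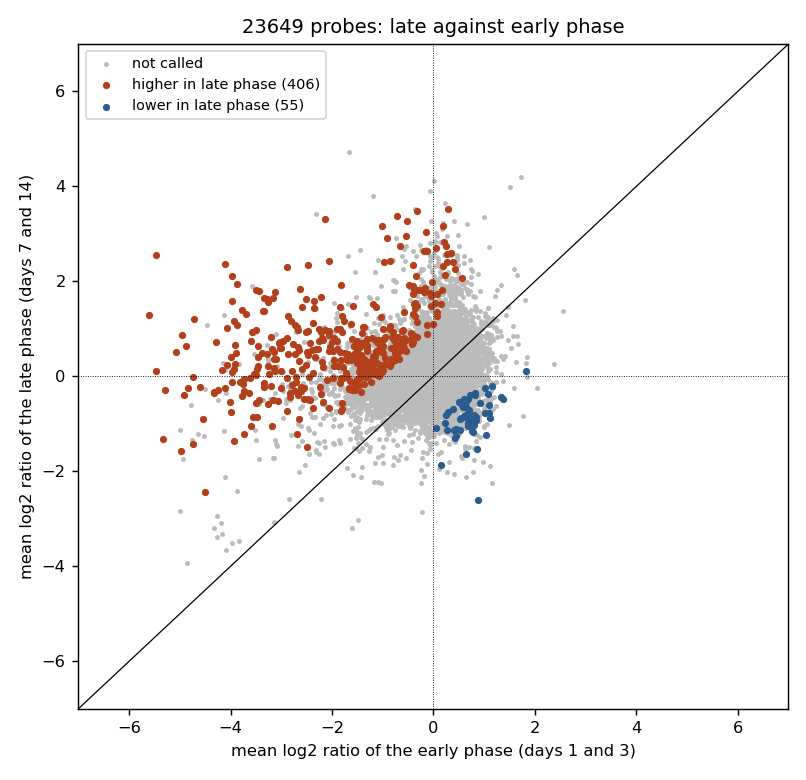
Mean log2 ratio of injured to sham for 23649 probes, with the late phase (days 7 and 14) on the vertical axis and the early phase (days 1 and 3) on the horizontal axis. Of the 406 probes called higher 386 lie left of the vertical 0 line, where the early phase was below sham, and the 55 called lower all lie right of it.

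The separated probes were placed by where each phase lay relative to sham. Of the 801 probes separated upward, 340 (42.4%) were within 2-fold of sham on both late days and at least 2-fold below it on both early days. This count depended on the centring of the arrays: with median centring it was 104 of 647. Another 138 (17.2%) were at least 2-fold above sham in the late phase and near it in the early phase. Another 30 (3.75%) were at least 2-fold above sham on both late days and at least 2-fold below it on both early days. Cxcl13, a chemokine that draws B cells, was at 4.41 on day 7 and 4.01 on day 14, against 1.201 on day 1 and 2.25 on day 3. It was the only separated gene at least 2-fold above sham on all 4 arrays, and it was not called (adjusted p = 0.0772). Among the 129 probes separated downward, 31 were mixed late and near sham early, 26 (20.2%) were near sham in both phases, 23 (17.8%) were at least 2-fold below sham late and near it early, and 10 (7.75%) were near sham late and at least 2-fold above it early. Mixed means that the days of a phase fell in different classes.

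**Figure D2:**
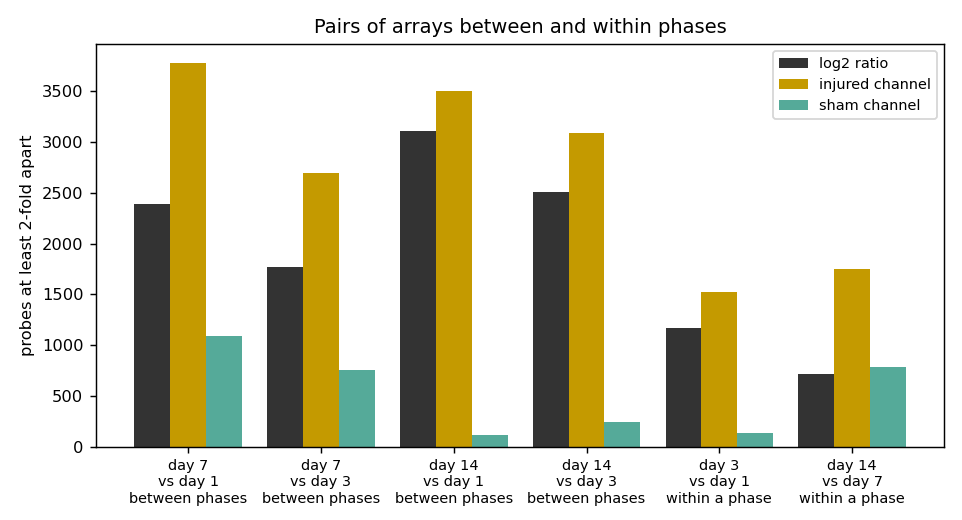
Number of probes at least 2-fold apart for each of the 6 pairs of arrays, by log2 ratio, injured channel and sham channel. By log2 ratio the 4 pairs between phases have 1766 to 3111 such probes and the 2 pairs within a phase 1170 (day 3 against day 1) and 720 (day 14 against day 7), while in the sham channel the 3 pairs with day 7 stand highest.

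By log2 ratio days 14 and 7 differed at least 2-fold at 720 probes, fewer than any pair between phases. In the injured channel alone they differed at 1750, more than days 3 and 1 (1526), and their median absolute difference of 0.29 was as large as that of days 14 and 3 (0.29). Of the 801 probes separated upward, 675 differed less than 2-fold between the late days, 102 went at least 2-fold further by day 14 and 24 went back. Parvalbumin, Pvalb, the calcium buffer of fast fibres, changed within the late phase. It was at -3.38 on day 7 and 2.37 on day 14, against -3.30 on day 1 and -5.18 on day 3. Its phases overlapped, and its difference of 3.73 ± 2.06 (SE) was not called (adjusted p = 0.427).

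Of the 32 gene lists, the fast fibre list and the list of sarcomere and coupling genes had the largest median differences by ratio. All 24 tested genes of the sarcomere, of excitation-contraction coupling and of the muscle membrane had a positive difference, 16 were called higher and 21 were separated upward, with a median of 3.67 beside 0.04 over all genes. Ampd1, the AMP deaminase of muscle, had the largest difference of all separated genes. It was at 0.81 on day 7 and 1.78 on day 14, against -4.84 on day 1 and -6.39 on day 3. The phases did not overlap, and the difference was 6.91 ± 0.64 (SE, adjusted p = 0.0323), or 120-fold. The other, dimmer probe of Ampd1 gave 0.12. A gene is represented here by its brightest tested probe. Trdn, triadin, which anchors the calcium release complex, was at 0.65 and 1.09 on days 7 and 14, against -4.30 and -5.63 on days 1 and 3. Its difference was 5.83 ± 0.49 (adjusted p = 0.0282), and its 3 probes ranged from 2.25 to 5.83.

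A few of these genes crossed from well below to well above sham. Ldb3, a Z-disc protein, was at 1.63 and 2.27 on the late days, against -3.97 and -3.78 on the early days, a difference of 5.82 ± 0.26 (adjusted p = 0.0131), with 3.79 from its lowest probe. Tmod1, tropomodulin, which caps the slow-growing end of the thin filament, was at 2.40 and 2.21, against -2.99 and -2.76 in the early phase. Its difference was 5.18 ± 0.16 (adjusted p = 0.0131), and its other probe gave 3.42. Sln, sarcolipin, which inhibits the calcium pump of the sarcoplasmic reticulum, stood at 2.40 and 1.84 late, against -4.33 and -3.60 early. Its brightest probe differed by 6.09 ± 0.34 (adjusted p = 0.0158), and its other probe by 1.45. Smpx, a small muscle protein of the costamere, was at 1.03 and 1.74 in the late phase and at -3.67 and -3.87 in the early phase (adjusted p = 0.0158). Myom2, an M-band protein, crossed in the same way with a difference of 4.99.

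Other sarcomere and coupling genes came back to about the sham level. Acta1, skeletal alpha-actin, was at -0.50 and 0.22 late, against -3.15 and -3.55 early (difference 3.21 ± 0.31, adjusted p = 0.0346). Ckm, cytosolic creatine kinase, was at -0.49 and 0.17, against -3.23 and -4.29, and because its injured spot was saturated on both late days its difference is a bound of at least 12.1-fold (adjusted p = 0.0476). Stac3, an adaptor needed for excitation-contraction coupling, was among the genes with the smallest adjusted p. It was at 0.29 and 0.71 in the late phase, against -3.89 and -3.91 in the early phase, with a difference of 4.40 ± 0.19 (adjusted p = 0.0131). The structural giants Ttn and Neb differed by 4.16 and 4.60, and the calcium release channel Ryr1 by 4.10, all of them called, though the lowest of 3 probes of Ttn gave 1.15 and the lowest of 5 of Ryr1 0.75. The members that were neither called nor separated were Dmd, Jph1 and Jph2, with differences of 0.93, 0.34 and 0.38.

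Fast fibre genes had a larger median difference than slow fibre genes, at 4.34 over 12 tested fast genes and 1.13 over 15 tested slow genes. This difference between lists was not tested. Of the fast genes 5 were called and 10 were separated, all upward. Myl1, a fast myosin light chain, was at 0.72 and 1.63 late, against -3.35 and -4.51 early (difference 5.11 ± 0.52, adjusted p = 0.0377). Tnnt3, fast troponin T, was above sham on both late days and below it on both early days, with a difference of 4.71 (adjusted p = 0.0251). The calcium pump Atp2a1 differed by 4.47, and Tnni2, fast troponin I, by at least 12.8-fold because its injured spot was saturated on both late days. The fast myosins Myh2 and Myh4 were separated but not called. Myh2 was at 0.58 and 3.23 late, against -2.85 and -4.29 early (adjusted p = 0.0965), and Myh4 at -0.78 and 1.53, against -2.89 and -3.62 (adjusted p = 0.129). Beside these values stands a shift of the sham channel: the sham level of the fast list was lower in the late phase by a median of -1.17, and the injured channel alone gave a median difference of 3.17. Sham levels of Myh4, Myl1 and Tnnt3 changed by -1.55, -1.34 and -1.23 late minus early, and that of Acta1 by -1.13. By construction a ratio difference is the injured-channel difference minus the sham change. A shift that both channels share cancels in the ratio, so how far these sham shifts enter the ratios is not known. Myh4 differed by 3.63 by ratio and 2.08 in the injured channel, Myl1 by 5.11 and 3.77, and Acta1 by 3.21 and 2.08. The cause of the sham shifts was not tested.

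Of 15 slow fibre genes 4 were called higher, 6 were separated upward and 2 were lower at an unadjusted p under 0.05. Those 2 were Tpm3, a slow tropomyosin (-1.02, adjusted p = 0.185), and Atp2a2, the slow and cardiac calcium pump (-0.69, adjusted p = 0.0975), whose 3 probes ranged from -1.16 to 2.52. Mybpc1, slow myosin binding protein C, was at -0.06 and -0.15 late, against -3.73 and -4.21 early (difference 3.86 ± 0.20, adjusted p = 0.0157). Casq2, the cardiac and slow calsequestrin, differed by 2.60 and Myoz2, a calcineurin-binding Z-disc protein, by 2.14, both called. Tnni1, slow troponin I, was called as well (2.58 ± 0.16, adjusted p = 0.0178) but was still below sham on both late days, at -1.50 and -1.23, against -4.02 and -3.86. The slow myosin Myh7 stayed low at -3.99 and -2.66, against -4.09 and -4.24, and was not called (adjusted p = 0.432). Its sham spot was saturated on days 1, 3 and 14, so its true ratio on those days may be lower still. Tnnt1, slow troponin T, was at -3.13 and -2.75, against -4.12 and -4.41 (adjusted p = 0.0711). In whole muscle, fewer cells of a type and less RNA per cell cannot be told apart, here or in the groups that follow.

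**Figure D3:**
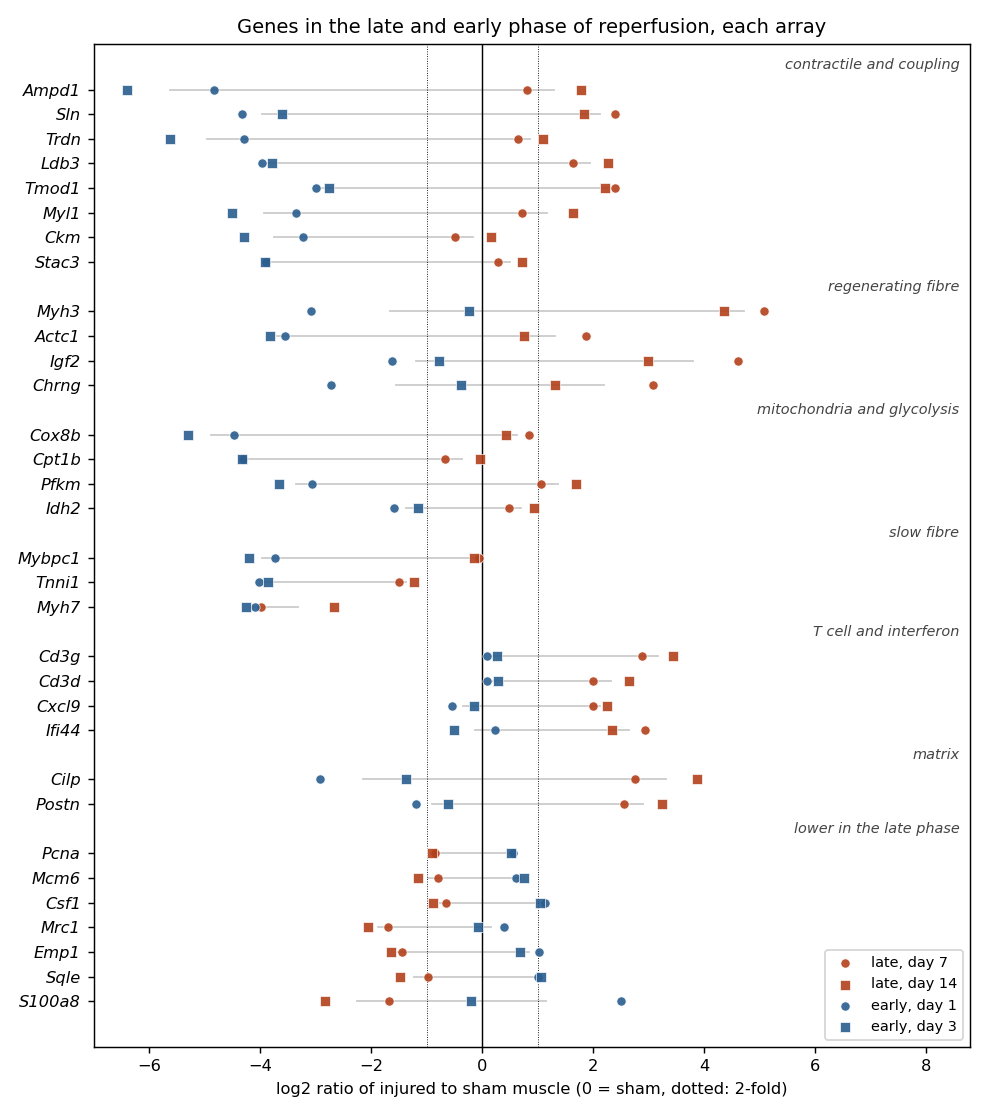
Log2 ratio of injured to sham on each array for 32 genes, grouped by role, with late arrays in red, early arrays in blue and a grey line between the phase means. The contractile genes of the first group sit left of -2 early and right of -1 late, Myh7 stays left of -2 on all 4 arrays, and Cd3g and Cd3d sit at 0 early and above 1 late.

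Promoter motifs known from muscle genes were looked up in the 250 bases before the start of each gene, since many muscle genes moved together. The MEF2 site, bound by the MEF2 factors, and the E-box CAGCTG, bound by MyoD-family factors, were searched on both strands. A MEF2 match was found in 20 of 197 called-higher genes with a promoter entry (10.2%), beside 168 of 8893 tested genes with an entry (1.89%), and in 0 of 30 called-lower genes. A CAGCTG match was found in 39 of the 197 (19.8%) and in 7 of the 30 called-lower genes (23.3%), beside 1075 of the 8893 (12.1%). These are letters in a window and say nothing about binding. Upstream sequences of 3 genes that rose are shown as RefSeq gives them on GRCr8. That of Ampd1, chr2:193287082-193287331 on the plus strand, holds a MEF2 match, as does that of Cox6a2, chr1:192219717-192219966 on the minus strand. Capitals mark the MEF2 match in these, and Cox6a2 also holds a match to CAGCTG that is left in lower case. That of Stac3, chr7:65228225-65228474 on the plus strand, holds 2 matches to CAGCTG close to its start, in capitals.
Ampd1: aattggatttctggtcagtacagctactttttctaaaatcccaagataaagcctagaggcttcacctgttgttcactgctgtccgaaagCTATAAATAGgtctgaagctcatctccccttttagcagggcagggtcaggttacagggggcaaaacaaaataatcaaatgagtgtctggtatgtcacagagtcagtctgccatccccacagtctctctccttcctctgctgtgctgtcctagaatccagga
Cox6a2: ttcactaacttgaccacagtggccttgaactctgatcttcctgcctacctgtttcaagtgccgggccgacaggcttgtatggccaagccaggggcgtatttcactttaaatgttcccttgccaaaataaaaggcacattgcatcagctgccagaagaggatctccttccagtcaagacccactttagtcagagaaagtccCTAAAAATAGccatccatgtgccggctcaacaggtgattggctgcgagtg
Stac3: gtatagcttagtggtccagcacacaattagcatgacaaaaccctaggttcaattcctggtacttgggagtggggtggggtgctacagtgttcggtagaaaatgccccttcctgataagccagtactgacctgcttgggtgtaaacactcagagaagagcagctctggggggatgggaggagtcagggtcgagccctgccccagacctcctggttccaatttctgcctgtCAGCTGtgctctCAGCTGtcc

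Genes of embryonic and regenerating fibres included some of the highest late ratios. Of 17 tested, 2 were called higher and 8 were separated upward, with a median of 1.98. Myh3, the embryonic myosin heavy chain, was at 5.08 on day 7 and 4.35 on day 14, against -3.08 on day 1 and -0.24 on day 3. Its difference of 6.38 ± 1.01 was not called (adjusted p = 0.0744), the early arrays lying far apart, and its injured spot was saturated on day 7. Actc1, cardiac alpha-actin, which developing skeletal muscle also makes, was called: 1.88 and 0.75 late, against -3.54 and -3.83 early (difference 5.0 ± 0.41, adjusted p = 0.0277), with 3.21 from its other probe. Myf6, a myogenic factor of maturing fibres, was also called at 3.73 (adjusted p = 0.0279). Igf2, a fetal growth factor, was at 4.61 and 3.00, against -1.62 and -0.77, and just missed the threshold (adjusted p = 0.0512). Chrng, the fetal subunit of the acetylcholine receptor, was at 3.07 and 1.31, against -2.73 and -0.38 (adjusted p = 0.163). Of the myogenic factors that act earlier, Myog did not overlap between phases, by a gap of only 0.23, and was not called, and Myod1 overlapped. Myog was at -0.02 and -1.22 late, against -3.74 and -1.45 early (adjusted p = 0.338), and Myod1 at 1.01 and 0.12, against -0.18 and 1.95 (adjusted p = 0.881).

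Of 33 oxidative phosphorylation genes 12 were called higher, 22 were separated upward and 32 had a positive difference (median 1.37). Cox8b, a cytochrome oxidase subunit of muscle, was at 0.85 and 0.43 late, against -4.46 and -5.30 early (difference 5.52 ± 0.34, adjusted p = 0.0176), and its 3 probes ranged from 1.13 to 5.52. Cox6a2, another muscle subunit, differed by 3.48 ± 0.16 (adjusted p = 0.0131). Subunits that every tissue uses moved by smaller amounts, such as Ndufs3 of complex I at 1.76 and Cyc1 of complex III at 1.202, both called. Of 20 tricarboxylic acid cycle genes 6 were called higher and 6 separated (median 1.07), among them Idh2 (2.08), Sucla2 (2.05) and the pyruvate dehydrogenase subunit Pdhb (1.84).

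Fatty acid oxidation had 4 of 23 genes called and 7 separated upward, with a median of 1.18. Cpt1b, the carnitine transferase that lets fatty acids into muscle mitochondria, was at -0.68 and -0.03 late, against -4.31 and -4.32 early (difference 3.96 ± 0.25, adjusted p = 0.0178), though its other probe gave 0.39. Ucp3, a mitochondrial carrier of muscle, differed by 2.74 (adjusted p = 0.0283). Glycolysis and glycogen breakdown had 6 of 18 genes called and 8 separated upward (median 1.53). Pfkm, muscle phosphofructokinase, was at 1.05 and 1.69, against -3.06 and -3.65 (difference 4.73 ± 0.32, adjusted p = 0.0191). Pgam2, muscle phosphoglycerate mutase, differed by 4.92 (adjusted p = 0.0439).

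Matrix genes mostly had positive differences, with few calls. No collagen or collagen-modifying gene of 24 tested was called by limma, 4 were higher and 0 lower at an unadjusted p under 0.05, and 2 were separated upward (median 1.00). Col1a1, a chain of type I collagen, was at 3.27 and 3.78 late, against -2.54 and 1.80 early, so that day 3 was already above sham (adjusted p = 0.274). Its sham level changed by -1.73 late minus early and its injured spot was saturated on both late days. Of 29 other matrix genes 3 were called higher, 7 were separated upward and 1 downward (median 0.81). Cilp, a cartilage intermediate layer protein, was at 2.76 and 3.88, against -2.92 and -1.37, a difference of 5.46 ± 0.66 (adjusted p = 0.0469), with 2.33 from its other probe. Postn, periostin, a matricellular protein, was at 2.57 and 3.24, against -1.19 and -0.62 (difference 3.81 ± 0.33, adjusted p = 0.0282). Mfap4, a microfibril protein, was called at 1.81. Vcan, versican, was separated the other way, at -0.49 and -0.75 late, against 1.97 and 0.51 early (adjusted p = 0.171).

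Matrix proteases went in both directions, and 0 of 21 were called by limma (4 higher and 5 lower at an unadjusted p under 0.05). Their median of 0.07 turned to -0.16 with median centring, -0.38 in the deposited value table, -0.27 with no offset and -0.19 in the injured channel. Mmp3, stromelysin, was at -2.01 and -2.22 late, against 1.89 and -0.59 early, and Adam8, a protease of myeloid cells, was separated downward too (-2.15, with -0.23 from its other probe). Mmp2, gelatinase A, and Mmp14, which activates it, were separated upward. Mmp14 was at 3.00 and 2.06, against -1.70 and 1.03 (adjusted p = 0.239).

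Some T cell genes rose in the late phase. Of 13 tested lymphocyte and cytotoxic cell genes 3 were called higher and 7 were separated upward, with a median of 1.47 and 1.73 in the injured channel. Cd3g, a signalling chain that accompanies the T cell receptor, stood at 2.89 and 3.44 late, against 0.09 and 0.27 early (difference 2.98 ± 0.23, adjusted p = 0.0253). Cd3d, its partner chain, was at 2.00 and 2.65, against 0.09 and 0.28 (2.14 ± 0.26, adjusted p = 0.0475). The groups of both genes lay far apart, with the early arrays at the sham level. Gzma, granzyme A of cytotoxic lymphocytes, was called at 1.65 (adjusted p = 0.0283), and Zap70, a kinase of T cell signalling, was separated at 1.67 without being called. Cd8a, of cytotoxic T cells, was at -1.57 and -1.88 late, against 0.56 and -1.65 early (adjusted p = 0.499).

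Interferon response genes had a median of 1.94 over 28 tested, with 4 called higher and 11 separated upward. The called genes were Cxcl9 and Cxcl11, chemokines induced by interferon gamma that attract T cells, Ifi44 and Bst2, which tethers viruses to the cell surface. Cxcl9 was at 2.00 and 2.25 late, against -0.55 and -0.15 early (difference 2.47 ± 0.20, adjusted p = 0.0265). Ifi44 was at 2.94 and 2.34, against 0.24 and -0.50 (adjusted p = 0.04998). Irf7, a factor that switches on interferon genes, was above sham on day 1 and below it on day 3: it was at 3.11 and 2.60 late, against 0.87 and -0.48 early (adjusted p = 0.0975). Isg15, a ubiquitin-like protein, showed the same shape, at 3.68 and 2.54, against 1.43 and -1.09 (adjusted p = 0.216). Ifi27 was at 1.73 and 2.33, against -1.27 and -0.27 (adjusted p = 0.0661).

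The interferon response element ISRE was searched on both strands as gaaa, any 2 bases and gaaa. It was found upstream in 14 of 22 tested interferon genes with a promoter entry (63.6%), beside 269 of 8893 tested genes (3.02%). Among called genes with an entry it was found in 9 of 197 called higher (4.57%) and 0 of 30 called lower. The share in the list describes its genes and not the difference between the phases. The sequences before Ifi27, chr6:128355062-128355311 on the plus strand, and Irf7, chr1:205800024-205800273 on the minus strand, are shown as examples from RefSeq on GRCr8, with matches in capitals. The match of Irf7 reads on the opposite strand.
Ifi27: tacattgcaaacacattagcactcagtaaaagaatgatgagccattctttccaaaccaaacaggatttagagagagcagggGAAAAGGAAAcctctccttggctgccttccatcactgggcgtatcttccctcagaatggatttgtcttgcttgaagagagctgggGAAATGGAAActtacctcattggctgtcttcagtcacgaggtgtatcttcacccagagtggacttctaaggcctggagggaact
Irf7: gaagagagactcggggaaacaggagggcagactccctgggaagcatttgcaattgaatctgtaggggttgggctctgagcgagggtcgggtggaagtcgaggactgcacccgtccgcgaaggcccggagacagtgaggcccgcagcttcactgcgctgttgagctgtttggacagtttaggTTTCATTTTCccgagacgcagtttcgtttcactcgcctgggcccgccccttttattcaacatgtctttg

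Antigen presentation and complement were higher by their medians with few calls. Of 7 class II genes 1 was called: Cd74, the invariant chain, was at 1.69 and 2.05 late, against -0.33 and 0.02 early (difference 2.03, adjusted p = 0.0381). Its sham level changed by -0.87 late minus early, and the injured channel alone gave a difference of 1.16. All 13 class I genes had a positive difference (median 0.95), 11 were higher and 0 lower at an unadjusted p under 0.05, and 0 were called by limma. B2m, the shared light chain, differed by 1.47 with its injured spot saturated on days 1, 7 and 14. Probes of the RT1 genes, as of other gene families with near-identical members such as myosins and globins, may read more than 1 gene. Of 17 complement genes 8 were separated upward and 0 were called (9 higher and 0 lower at an unadjusted p under 0.05, median 1.46). C1qa, a chain of the first component, was at 3.55 and 2.91, against -1.01 and 1.40 (adjusted p = 0.176). Cfb, factor B of the alternative pathway, was at 2.08 and 3.22, against -0.91 and 0.44 (adjusted p = 0.114).

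Neutrophil genes were lower late by their median (-0.74 over 14), with 0 called by limma and 0 higher and 5 lower at an unadjusted p under 0.05. S100a8, a subunit of the neutrophil protein calprotectin, had the lowest difference among separated genes. It was at -1.67 and -2.83 late, against 2.50 and -0.20 early, so that the excess over sham was seen on day 1 only (difference -3.40 ± 1.01, adjusted p = 0.19). Sham muscle was not free of it: its S100a8 level, about the same on every array, lay at 9.69 to 10.16 on the log2 scale of single channels, on which the injured channel was at 6.87 on day 14.

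Macrophage genes moved in opposite directions. Of 27 tested 1 was called lower, 2 were separated downward and 4 upward (median -0.70). Mrc1, the mannose receptor, was at -1.69 and -2.06 late, against 0.39 and -0.07 early (difference -2.04 ± 0.24, adjusted p = 0.0444). Lgals3, galectin 3, was separated downward by at least 3.71-fold, its injured spot being saturated on both early days. Spp1, osteopontin, was at -1.31 and -4.42, against 0.08 and -0.52 (adjusted p = 0.3), with its injured spot saturated on day 1. The 4 separated upward were C1qa, C1qb, C1qc and Fcgr3a, an Fc receptor that was at 3.07 and 2.48, against 0.43 and -0.98 (adjusted p = 0.0862). Cd68, a lysosomal protein of macrophages, hardly differed (0.03, adjusted p = 0.983), and its sign turned with median centring, without day 7 and in the injured channel. Lyve1, a hyaluronan receptor of lymphatic vessels and some macrophages, was at -2.06 and -1.95, against 0.11 and 1.46 (adjusted p = 0.0838).

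Among 24 cytokine and chemokine genes (median -0.50) 1 was called lower, 2 were separated downward and 3 upward. Csf1, the growth factor of macrophages, was called: -0.65 and -0.88 late, against 1.14 and 1.04 early (difference -1.86 ± 0.15, adjusted p = 0.0259). Cxcl1, which attracts neutrophils, was at -1.47 and -2.06, against 1.49 and 0.10 (adjusted p = 0.11), and Ccl2, which attracts monocytes, at -1.04 and -2.56, against 2.08 and -0.13 (adjusted p = 0.225), where the day 1 spot of Ccl2 was saturated and its ratio may be higher. The chemokines separated upward, Cxcl13, Ccl19 and Ccl21, are those that organise lymphoid tissue. Ccl19 was at 0.81 and 2.42, against -0.48 and -0.43, with spots not well above background on day 1 in the injured channel and on days 3 and 7 in sham.

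Of 32 tested cell division genes 3 were called lower and the same number were separated, and 31 had a negative difference (median -1.33). The list's median ratio was -0.40 on day 7 and -0.63 on day 14, against 0.08 on day 1 and 1.28 on day 3. Pcna, the sliding clamp of DNA polymerase, was at -0.85 and -0.90 late, against 0.55 and 0.52 early (difference -1.41 ± 0.12, adjusted p = 0.0298). Mcm6 and Mcm3, subunits of the replicative helicase, were called at -1.66 and -1.60, with -0.58 from the other probe of Mcm3. Cdk1 and Ccna2 were highest on day 3 and near sham on day 1, and were not called. Cdk1, the kinase that starts mitosis, was at -0.73 and -1.38, against 0.14 and 1.86 (adjusted p = 0.203), and Ccna2, its cyclin, at -0.65 and -1.08, against 0.17 and 1.61 (adjusted p = 0.194).

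The called-lower genes with the smallest adjusted p were Emp1, Emp3, Tec, Csf1 and Anxa2. Emp1, a small membrane protein, was at -1.44 and -1.63 late, against 1.02 and 0.68 early (difference -2.39 ± 0.18, adjusted p = 0.025). Tec, a cytoplasmic tyrosine kinase, was at -0.83 and -0.79, against 0.84 and 0.76 (adjusted p = 0.0253), and Anxa2, a membrane-binding annexin, at -0.84 and -0.86, against 0.94 and 0.75 (adjusted p = 0.0265). All 3 were above sham early and below it late on each array. Of 20 immediate early genes 2 were called lower, Fosl1 (-1.71, adjusted p = 0.0282) and Egr2 (-1.44, adjusted p = 0.0474), both transcription factors. The list's median was -0.06 and 0.03 with no offset.

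Of 19 heat shock and chaperone genes 4 were called higher and 6 separated upward (median 0.47), and the 4 were small heat shock proteins known from muscle. Hspb3 was at -0.10 and 0.29 late, against -3.95 and -4.00 early (difference 4.07 ± 0.18, adjusted p = 0.0131). Its sham level on day 7 was 8.16, against 9.97 to 10.82 on the other arrays (log2), its sham change was -0.85 and the injured channel alone gave 3.22. The injured level of Hspb3 was 8.05 on day 7 and 11.11 on day 14, against 6.75 on day 1 and 5.97 on day 3. Both of its channels were thus lower on day 7 than on day 14. Hspb6 differed by 2.99, Hspb2 by 1.84 and Hspb1 by 1.48. Both channels of Hspb6 were also lower on day 7 (9.46 injured, 9.18 sham) than on day 14 (11.27 and 10.54). Among 16 atrophy and ubiquitin genes 2 were called higher, Asb2 (4.38) and Klhl41 (3.29), both substrate adaptors of ubiquitin ligases that muscle makes. Trim63, the ligase MuRF1, was at -1.72 and -0.59, against -3.44 and -4.82 (adjusted p = 0.111). Ctsl, the lysosomal protease cathepsin L, was separated downward (-2.00), with its injured spot saturated on day 1, so that its difference may be larger in size. No antioxidant gene of 21 was called or separated (3 higher and 5 lower at an unadjusted p under 0.05 in limma, median -0.34), and Hmox1, heme oxygenase, was at -0.82 and -1.95, against 1.00 and -0.13 (adjusted p = 0.201).

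Other genes with extreme values stood outside these groups. Apobec2, the muscle member of a cytidine deaminase family, was at -0.04 and 2.20 late, against -4.01 and -4.92 early (difference 5.55 ± 0.83, adjusted p = 0.0682), with its injured spot saturated on day 14. Ddit4l, a relative of the mTOR inhibitor Ddit4, was at 0.24 and 2.33, against -4.18 and -4.06 (adjusted p = 0.0565). Neither was called, and the late days of each lay about 2 apart on the log2 scale. Art3, an ADP-ribosyltransferase family member, and Macrod1, a hydrolase of ADP-ribose groups, were among the genes with the smallest adjusted p (0.0131 each), called at 3.71 and 3.24. Among the largest separated negative differences, none of them called, were Il1rl1, the receptor of interleukin 33 (-2.51), Fam111a, a protease (-2.28, with -1.35 from its other probe), Pla2g7, which degrades platelet-activating factor (-2.27), Dab2, an endocytic adaptor (-2.23), Chaf1b, a histone chaperone of replication (-2.20), and Pgap6 (-2.46). Dab2 was at -1.37 and -1.99, against 0.82 and 0.28 (adjusted p = 0.0583).

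**Figure D4:**
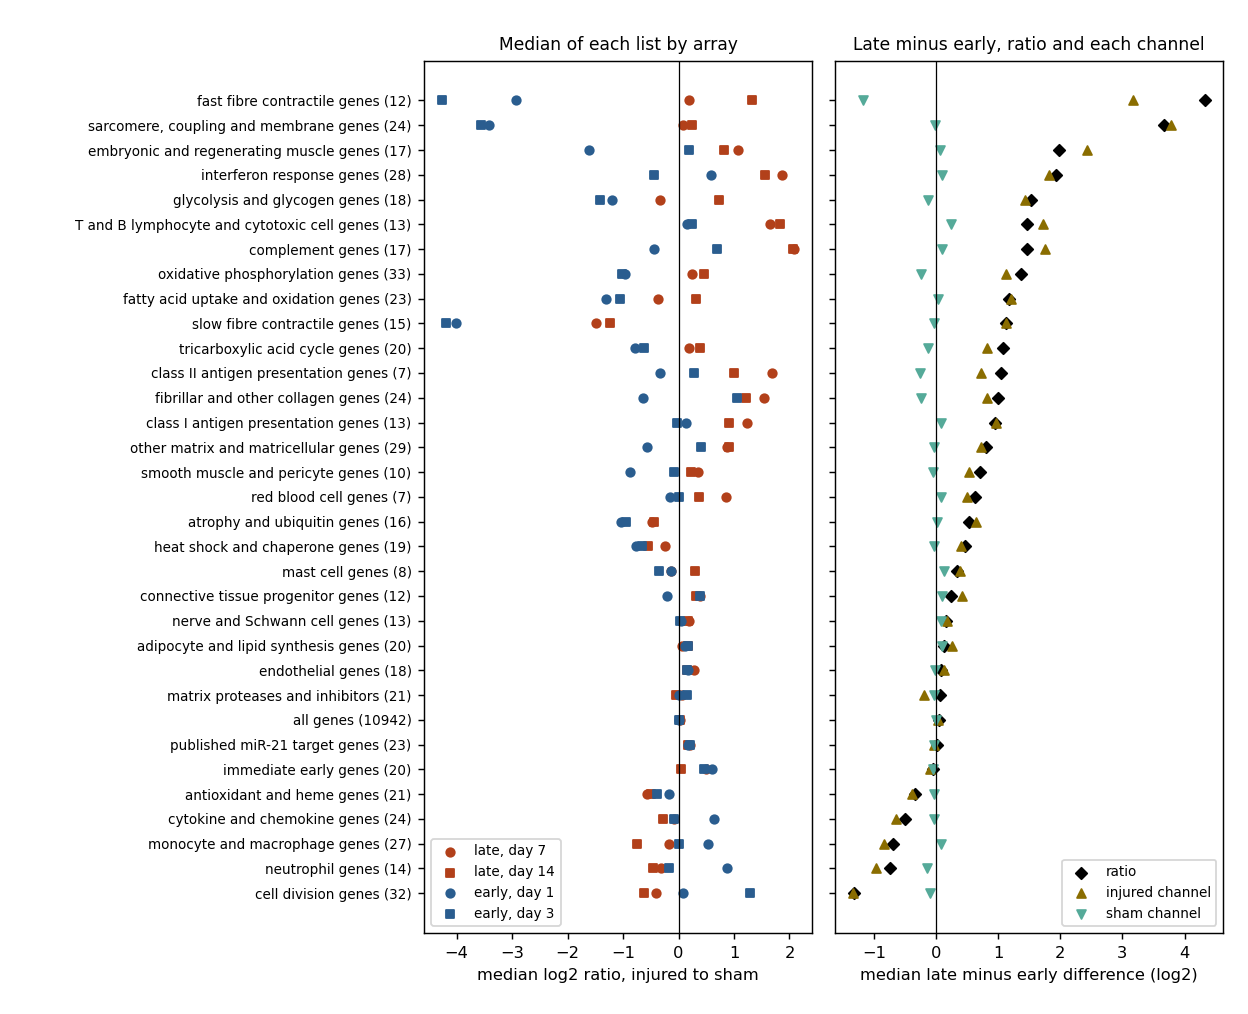
Median log2 ratio of each gene list on each array (left) and median late minus early difference by ratio, injured channel and sham channel (right), with the number of genes tested in parentheses. By ratio the fast fibre list has the largest difference (4.34), in the injured channel the sarcomere and coupling list (3.78, beside 3.17 for fast fibre), and the fast fibre list has the only sham median beyond 1 in size (-1.17). The cell division list has the lowest difference by ratio (-1.33).

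Lists of other cells of the muscle had medians within 1 of 0, with single genes beyond that. Endothelial genes had 0 of 18 called by limma (3 higher and 1 lower at an unadjusted p under 0.05) and a median of 0.09, which turned to -0.10 with median centring and -0.12 in the deposited value table. Their marker Pecam1 was not well above background in any sham channel. Nerve and Schwann cell genes had a median of 0.16 (0 of 13 called, 1 higher unadjusted), connective tissue progenitor genes 0.23 (0 of 12 called, 0 unadjusted) and mast cell genes 0.34 (0 of 8, 0 unadjusted). Sfrp2, a secreted Wnt modulator in the progenitor list, was at 3.44 and 3.27 late, against -0.54 and 2.54 early (adjusted p = 0.338). Of 20 tested adipocyte and lipid synthesis genes 0 were called by limma (2 higher and 4 lower at an unadjusted p under 0.05), with a median of 0.13. Adipocyte markers Plin1 and Cidec were not well above background in any sham channel. The marker Adipoq was at 0.02 and 2.12 late, against -0.33 and 0.29 early (adjusted p = 0.525). Scd, which desaturates fatty acids, was the only gene of this list separated upward. It was at 4.88 and 3.37 late, against 0.05 and -0.02 early (difference 4.11, adjusted p = 0.0525). Elovl6 was the only gene separated downward (-1.71, adjusted p = 0.107). Of 10 smooth muscle and pericyte genes 1 was called, Synpo2 (3.66), with a sham change of -1.89 and an injured-channel difference of 1.77. Of 7 red cell genes 2 were called higher, Alas2, the heme synthesis enzyme of red cells (1.83, adjusted p = 0.0404), and the globin Hbb-b1 (2.76), whose sham level changed by -1.15 and whose injured spot was saturated on day 7, so that its difference may be larger.

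Published targets of miR-21, a microRNA of injury and repair, had a median of 0.02 over 23 tested genes, which turned to -0.09 with median centring and -0.03 in the injured channel. Of these 1 was called, Tpm1, a thin filament tropomyosin whose injured spot was saturated on both late days (at least 13.4-fold higher, adjusted p = 0.0282). It also stands in the fast fibre list, and its 4 probes ranged from 0.43 to 5.23. Pdcd4, a translation inhibitor, was at -0.44 and -0.06 late, against -0.27 and -0.51 early (0.14, adjusted p = 0.771). Reck, an inhibitor of matrix proteases, was at 0.21 and 0.78, against -0.16 and 0.81 (0.17, adjusted p = 0.877). Both genes' phases overlapped.

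In the injured channel alone 155 probes were higher (0.655%) and 15 lower (0.0634%) by limma, and 728 were separated upward (3.08%) and 258 downward (1.09%). Of the 406 probes called higher by ratio, 150 were also called higher in the injured channel, 344 were separated upward there and 395 had at least 50% of their difference there. Of the 55 called lower the counts were 6, 45 and 55. These probes were picked by the ratio difference, which holds the injured-channel difference, so high counts here are partly built in. The 50% count was not made over all tested probes. In the sham channel, which holds sham-operated muscle, limma called 1 probe (0.00423%) late against early, with 129 higher and 1212 lower at an unadjusted p under 0.05, while 1 probe (0.00423%) was separated upward and 50 (0.211%) downward. Without day 14 limma called 1967 sham probes and without day 7 it called 142.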

How the data were processed

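Injured (Cy5) and sham-operated (Cy3) gracilis were hybridised together on 4 arrays, per the labels. The deposited intensity values are mean spot and median local background brightness, not normalized, made with Feature Extraction 10.5.1.1 per the file headers; the submitters' processing notes name 9.5.3. The deposited log10 ratios of red over green were background-subtracted and dye-normalized by that software, per the file headers. The deposited value table is on the log2 scale and equals those ratios to within 0.005; it served only as an alternative. From the intensities, normexp background correction (offset 50), loess within arrays and, for single channels, Aquantile were computed with limma 3.58.1 in R 4.3.3, repeat spots were averaged, and the phases were fitted with lmFit and eBayes with Benjamini-Hochberg adjustment over 23649 probes. Adjusted p-values in the report are from limma, and the script was tested on simulated data with the within-phase spread and 200 changed probes. Limma called 0% of changes of 1, 45.5% of changes of 2 and 86.5% of changes of 4 (log2), and 0 to 5 unchanged probes. The gap rule was met, in either direction, by 72 to 79 unchanged probes. The arrays of a phase are of different days, and the labels do not say how many animals each sample came from. The p-values set late minus early against the spread within a phase, which holds the change between its days. They do not measure a spread between animals of 1 condition.

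A probe was named through its accession or symbol in RefSeq tables, and 21209 probes stayed unnamed. Genes to name were drawn, though not each of them is described, from a rule: the 12 largest and 12 smallest separated differences, the 5 smallest adjusted p in each direction, from each list the 3 genes lying furthest out on the side of its median and up to 2 separated the other way, and a set of key genes. Called, separated and some other members of the 32 lists were named in addition after their values were seen, and a few are not reported here. The members and lists were chosen with earlier results of these data known. Alternatives were median centring, the deposited table, no background correction, no offset, all probes, probes bright in both channels, unsaturated probes, a variance trend, the scan session and each array left out.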

Additional observations from a re-analysis of the deposited data

Results flagged for a closer look

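Among the genes named in the report, 8 stood out because they lay at least 2-fold above sham on both late days and at least 2-fold below it on both early days. By late minus early difference on the log2 scale they were Sln (6.09), Ldb3 (5.82), Cilp (5.46), Tmod1 (5.18), Smpx (5.16), Myom2 (4.99), Pfkm (4.73) and Tnnt3 (4.71). Each was called by limma at an adjusted p under 0.05, and over all tested genes 14 followed this path. The sham level of Tnnt3 changed by -1.23 late minus early and that of Smpx by -0.66. How far those shifts enter the ratio differences is not known, since by construction a shift that both channels share cancels. The difference in the injured channel alone was 3.47 for Tnnt3 and 4.50 for Smpx.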

How the results depend on the processing

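No paired analysis was possible because each array was a different day. The labels tie no late array to an early one by animal, batch or replicate number, though day 7 was scanned with days 1 and 3. The limma counts of 406 probes higher and 55 lower became 227 higher with median centring, 12 lower in the deposited value table, 155 higher and 15 lower in the injured channel, and 245 higher and 35 lower over genes in place of probes. They fell to 0 in both directions with the scan session as a covariate, which by construction equals leaving out day 14. Leaving out each array in turn gave 0 to 420 probes higher and 0 to 62 lower, 966 to 1384 separated upward and 184 to 505 downward. The counts of 801 separated upward and 129 downward became 1240 and 469 in the deposited table, 477 and 83 over genes, and, downward, 398 with median centring, 236 with no offset and 258 in the injured channel. By construction the gap rule has fewer arrays to meet when one is left out.

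In the injured channel, 155 higher and 15 lower became 102 and 7 with no background correction, 353 and 61 with no offset, 332 and 65 over probes bright in both channels and 420 and 64 with a variance trend. They became 0 and 0 over all gene probes, with the session covariate and without any 1 array (0 to 0), and 25 were lower with median centring. The 1 sham call became 0 with median centring, with no background correction, with no offset and over all gene probes, and 1967 with the session covariate. Without single arrays it was 1 to 1967. The 340 probes near sham late and below it early were 104 with median centring and 413 to 570 without single arrays. The lowest count of 2-fold probes between phases, 1766, was 5568 in the deposited table and 2932 with no offset. The cause of these changes was not tested.

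Of 32 list medians 4 changed sign under some setting. The list medians were not computed with single arrays left out or with the scan session as a covariate. The matrix proteases turned to -0.1647 with median centring, -0.375 in the deposited table, -0.2721 with no offset and -0.1897 in the injured channel. The immediate early genes turned to 0.032 with no offset. The endothelial genes turned to -0.097 with median centring and -0.115 in the deposited table. The miR-21 targets turned to -0.0938 with median centring and -0.0296 in the injured channel. None of the called genes named in the report changed sign under any setting run. For settings that left out an array this was fixed in advance, since the phases did not overlap at any of the 461 called probes. The session covariate, which equals leaving out day 14, is 1 of these. Of 76 named genes that were called, 55 stayed called with median centring, 45 in the deposited table and 32 in the injured channel. Signs turned for 5 genes that were not called. Atp2a2 was 0.2244 as the mean over its probes. Cd68 was -0.4189 with median centring and -0.5406 in the injured channel, and -0.4907 to 0.5457 with single arrays left out. Pdcd4 was -0.0938 with median centring, -0.0451 with the session covariate and -0.0996 in the injured channel, and -0.0451 to 0.3305 with single arrays left out. Reck was -0.115 with the session covariate and -0.314 to 0.6565 with single arrays left out. Myod1 was 0.1192 with the session covariate and -1.3912 to 0.7389 with single arrays left out.

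With 4 arrays, precision is limited by their number.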

Other observations

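The lists of this section were chosen after the values had been seen and get no test of their own. Of 22 tested sterol synthesis genes 21 had a negative difference, 4 were called lower by limma over all probes and 6 were separated downward, with a median of -0.89 (-0.85 in the injured channel and -0.09 in sham). Sqle, squalene epoxidase, was at -0.98 and -1.48 late, against 1.01 and 1.06 early (difference -2.26, adjusted p = 0.0326). Idi1, which makes an isoprenoid building block, differed by -1.83, Cyp51, a sterol demethylase, by -1.75 (sham change -0.83), and Msmo1, a sterol oxidase, by -2.00. Of 9 genes of sterol export and of the factor Srebf1, 8 had a positive difference and 2 were called higher (median 0.99). They were Abcg1, a sterol exporter, at 2.14 and 2.02, against 0.40 and 0.72 (adjusted p = 0.0408), and Srebf1, which switches on lipid synthesis, with a difference of 2.49 (1.62 from its other probe).

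Of 22 tested genes of the nucleolus and of ribosome assembly 21 had a negative difference, 4 were called lower and 5 were separated downward (median -0.73, and -0.85 in the injured channel). Fbl, fibrillarin, which methylates ribosomal RNA, was at -0.75 and -0.97 late, against 0.58 and 0.69 early (difference -1.49, adjusted p = 0.0364). Nhp2, a protein of small nucleolar particles, differed by -1.38.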
